A study of Mus musculus with 16 samples.

Results

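Smooth muscle, stromal and vessel genes were followed through 16 libraries of mouse ileum mucosa, to describe how much of the tissue beneath the epithelium each library held. The 32 genes were chosen by symbol, as known markers of these tissues, and each was found among the 46078 gene identifiers of the deposited count table. They fall into 11 smooth muscle genes, 8 collagens, 5 other matrix proteins, 3 genes of mesenchymal cells in general and 5 genes of vessels.

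The study compared Slfn3KO mice, in which the gene Schlafen 3 is knocked out, with WT littermates, to ask what the gene does in the intestine. There were 4 groups of 4 libraries, namely male WT, male Slfn3KO, female WT and female Slfn3KO, and by the study's methods each library came from a separate mouse. The mice of every group had the strain background C57Bl/6, and the labels name no treatment. The labels give an age of 8 weeks and the study's methods an older age. The labels call the tissue intestinal mucosa and the study's methods call it ileum mucosa, and how the mucosa was separated from the layers beneath is not given in the sources used here.

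Between 20823279 and 30813117 reads per library were counted on genes. Levels are given as CPM, which are counts scaled to a common library size by edgeR's TMM method, or as RPKM, which are CPM per kilobase of a gene's exons. The values of a group are given in the order of its replicate numbers 1 to 4. A count of 3 reads, taken as the floor of detection, corresponded to between 0.102 and 0.150 CPM. Such floors cover counting error only. The 32 genes together took between 0.0302% and 0.0589% of the reads of a library. Mylk alone had between 4053 and 7829 counts, and the other 10 smooth muscle genes together between 121 and 3547.

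Several libraries go against their labels or stand apart. Xist, the RNA that silences an X chromosome in females, was at 442 and 394 CPM in male WT 3 and 4 by label, and the Y-linked gene Ddx3y at 0 and 0.0408. By contrast, female WT 3 and 4 by label held little Xist, 0.121 and 0 CPM, but 41.0 and 49.4 CPM of Ddx3y. The other 12 libraries had these transcripts as their labels say. Slfn3 itself had 1, 2, 19 and 0 counts in the libraries labelled male WT, 1, 4, 7 and 13 in female WT, 1, 0, 0 and 0 in male Slfn3KO, and 0, 0, 0 and 2 in female Slfn3KO. It was therefore at or under the floor in every Slfn3KO library and in 4 of the 8 WT libraries, so that it checks the genotype labels only in part. The libraries male WT 4, male Slfn3KO 3, female Slfn3KO 1 and female Slfn3KO 2 stand apart in the smooth muscle genes, as the values below show. Male and female below are the deposited labels.

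The wall of the ileum is built in layers. The mucosa holds the epithelium, a lamina propria of fibroblasts, small vessels and immune cells, and a thin muscle sheet, the muscularis mucosae; beneath it lie the submucosa, rich in collagen and larger vessels, and the muscularis externa, whose smooth muscle moves the gut. Smooth muscle cells share a contractile apparatus of actin, myosin and their partners, fibroblasts secrete collagens and other matrix proteins, and endothelial cells line the vessels.

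Of the contractile proteins, Acta2 (smooth muscle alpha-actin; ENSMUSG00000035783, chromosome 19, 34241090 to 34255336 of mm10) was at 1.88, 1.22, 2.26 and 11.8 RPKM in male WT, 1.61, 1.12, 7.52 and 0.77 in male Slfn3KO, 0.196, 2.28, 0.999 and 1.52 in female WT, and 4.94, 10.3, 1.27 and 0.615 in female Slfn3KO. The group means were 4.28 ± 5.0 RPKM (SD, n = 4) in male WT, 2.75 ± 3.2 (SD, n = 4) in male Slfn3KO, 1.25 ± 0.875 (SD, n = 4) in female WT, and 4.29 ± 4.45 (SD, n = 4) in female Slfn3KO. The male WT 4, female Slfn3KO 2, male Slfn3KO 3 and female Slfn3KO 1 libraries were the highest, female WT 1 was the lowest, and the values of the genotypes overlapped in each sex. In bulk tissue, fewer cells of a type and less RNA per cell cannot be told apart.

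Myh11, the heavy chain of smooth muscle myosin (ENSMUSG00000018830, chromosome 16, 14194527 to 14291408), was at 0.314, 0.183, 0.721 and 3.0 RPKM in male WT, 0.265, 0.165, 1.8 and 0.214 in male Slfn3KO, 0.0828, 0.236, 0.305 and 0.644 in female WT, and 0.98, 2.4, 0.264 and 0.11 in female Slfn3KO. Its 4 highest libraries were the same as those of Acta2 and came in the same order. Actg2 (enteric gamma-actin; ENSMUSG00000059430, chromosome 6, 83512905 to 83536265), the actin typical of gut smooth muscle, was at 0.764, 0.457, 0.485 and 14.6 RPKM in male WT, 0.493, 0.546, 4.46 and 0.333 in male Slfn3KO, 0.128, 0.622, 0.181 and 0.0279 in female WT, and 2.34, 6.55, 0.274 and 0.13 in female Slfn3KO. It had 559 counts in male WT 4 and 1 in female WT 4, in which Acta2 and Myh11 were not low. The ratio of Actg2 to Acta2 RPKM was 1.24 in male WT 4 and between 0.181 and 0.652 in the other libraries, apart from female WT 4, where 1 count allows no firm ratio.

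Des (desmin), the intermediate filament protein of muscle cells, was at 0.536, 0.285, 0.908 and 5.93 RPKM in male WT, 0.459, 0.238, 2.39 and 0.214 in male Slfn3KO, 0.319, 0.495, 0.689 and 0.801 in female WT, and 1.46, 3.6, 0.353 and 0.281 in female Slfn3KO. Tagln (transgelin), an actin-binding protein of smooth muscle, was at 1.81, 0.945, 1.52 and 9.52 RPKM in male WT, 2.22, 1.02, 7.58 and 1.37 in male Slfn3KO, 0.629, 2.05, 0.892 and 1.51 in female WT, and 4.81, 7.86, 1.4 and 0.819 in female Slfn3KO. Both were again highest in male WT 4, then in female Slfn3KO 2, male Slfn3KO 3 and female Slfn3KO 1, and the genotypes overlapped in each sex. Of the remaining smooth muscle genes, Cnn1 (calponin) was between 0.0421 and 3.67 RPKM, Myl9 (a regulatory myosin light chain) between 0.644 and 13.6, Tpm2 (a tropomyosin) between 0.278 and 4.88, Lmod1 (leiomodin, an actin nucleator) between 0 and 0.279 and Synpo2 (an actin-binding protein of the Z-disc) between 0.0216 and 0.298. For 9 of the 11 smooth muscle genes these 4 libraries were the highest 4. The exceptions were Synpo2, which had female WT 4 in place of female Slfn3KO 1, and Mylk.

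Mylk, the myosin light chain kinase, was between 16.7 and 35.3 RPKM and had its highest value in female WT 1, the library lowest in 6 of the other smooth muscle genes. It is also known as a gene of epithelial cells. Summed over the 10 smooth muscle genes without Mylk, the level was 7.93, 4.79, 7.51 and 67.6 RPKM in male WT, 8.67, 4.86, 34.8 and 4.82 in male Slfn3KO, 2.57, 9.11, 4.35 and 6.23 in female WT, and 22, 46.4, 5.6 and 3.55 in female Slfn3KO. The libraries that stand apart are thus 1 WT and 3 Slfn3KO libraries, and each sex and each genotype has at least 1 of them.

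**Figure D1:**
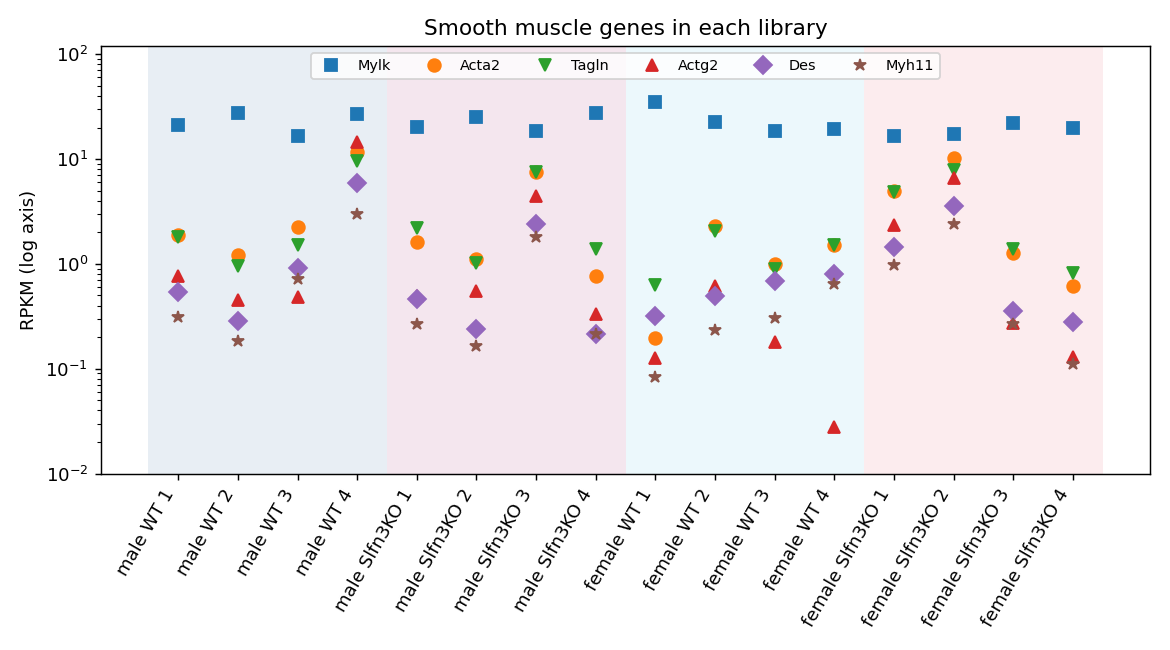
Level of 6 smooth muscle genes in each of the 16 libraries, as RPKM on a log axis, with shading by group. Male WT 4, male Slfn3KO 3, female Slfn3KO 1 and female Slfn3KO 2 are high in each gene shown but Mylk, which stays between 16.7 and 35.3 RPKM.

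Many smooth muscle genes are known to be driven by serum response factor, which binds a motif called the CArG box. The RefSeq promoter table (GRCm38.p6) held a window for 20 of the 32 genes, 8 of them smooth muscle genes. In the 250 bases before the start, on both strands, the CArG box by its strict definition was found in 1 of the 20, Myl9, and in 1.47% of the 32851 stretches of all genes. With 1 inner base allowed to differ, a setting chosen after the strict result was seen, it was found in Acta2, Col1a2, Col6a3, Kdr and Myl9, and in 8.59% of all stretches. The matches of Myl9 and Acta2, the 2 smooth muscle genes among them, are shown. Of the 8 smooth muscle genes with a window, Des, Cnn1, Lmod1, Synpo2, Mylk and Tpm2 had no match. Whether the matches bear on the levels was not tested. For Myl9 the stretch is the 206 bases chr2:156775214-156775419 on the plus strand, which end before the first annotated exon base, and its matches begin 161 and 99 bases before the RefSeq start. For Acta2 they are 30 bases each, chr19:34255438-34255467 and chr19:34255388-34255417 on the minus strand, whose matches begin 84 and 34 bases before the RefSeq start, inside the first exon of another annotated transcript. Capitals mark the matches, and the first match of Myl9 is the strict one. A match describes the letters and not a binding site.
Myl9: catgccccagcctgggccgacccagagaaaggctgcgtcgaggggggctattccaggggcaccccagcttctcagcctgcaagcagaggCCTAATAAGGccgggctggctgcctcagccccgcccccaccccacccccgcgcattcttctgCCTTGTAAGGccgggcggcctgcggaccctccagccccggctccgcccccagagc
Acta2, far match: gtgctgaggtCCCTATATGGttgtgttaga
Acta2, near match: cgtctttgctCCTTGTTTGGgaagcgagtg

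The fibrillar collagens form the fibres of connective tissue. Col1a1 (ENSMUSG00000001506, chromosome 11, 94936224 to 94953042), a chain of collagen I, was at 0.369, 0.185, 0.739 and 0.547 RPKM in male WT, 0.374, 0.334, 1.17 and 0.296 in male Slfn3KO, 0.152, 0.489, 0.555 and 0.385 in female WT, and 1.28, 1.16, 0.327 and 0.557 in female Slfn3KO. Its group means were 0.46 ± 0.238 RPKM (SD, n = 4) in male WT, 0.544 ± 0.421 (SD, n = 4) in male Slfn3KO, 0.395 ± 0.176 (SD, n = 4) in female WT, and 0.831 ± 0.463 (SD, n = 4) in female Slfn3KO. Its highest libraries were female Slfn3KO 1, male Slfn3KO 3 and female Slfn3KO 2, while male WT 4, the highest for muscle, lay in the middle.

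Col3a1, the chain of collagen III, was at 0.935, 0.923, 1.88 and 1.38 RPKM in male WT, 1.04, 0.781, 3.14 and 0.631 in male Slfn3KO, 0.483, 1.4, 1.28 and 1.06 in female WT, and 2.74, 3.06, 0.968 and 1.74 in female Slfn3KO. Col4a1, a chain of the basement membrane collagen IV, was at 0.975, 0.518, 1.58 and 0.79 RPKM in male WT, 0.64, 0.536, 2.24 and 0.472 in male Slfn3KO, 0.176, 1.34, 1.5 and 1.06 in female WT, and 1.64, 2.58, 0.566 and 1.37 in female Slfn3KO. In both genes male Slfn3KO 3, female Slfn3KO 2 and female Slfn3KO 1 were the highest 3 libraries, male WT 3 was next, and female WT 1 was the lowest. Col1a2, the other chain of collagen I, was between 0.0946 and 1.21 RPKM, Col4a2 between 0.189 and 1.87, and the chains of the beaded-filament collagen VI, Col6a1, Col6a2 and Col6a3, between 0.467 and 4.31, between 0.204 and 1.45 and between 0.0709 and 0.703. Each of the 8 collagens was lowest in female WT 1, and in none were the 4 highest libraries those of the smooth muscle genes. Col4a1 and Col4a2 lie head to head on chromosome 8, on opposite strands with starts 21 bases apart. The ratio of their RPKM stayed between 0.932 and 1.71, with a median of 1.37.

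Of the other matrix proteins, Dcn (decorin), a small proteoglycan that binds collagen fibres, was at 1.39, 0.959, 8.65 and 3.05 RPKM in male WT, 1.58, 1.15, 7.68 and 1.23 in male Slfn3KO, 0.838, 2.21, 3.86 and 4.69 in female WT, and 5.19, 4.57, 1.85 and 2.2 in female Slfn3KO. It was highest in male WT 3 and male Slfn3KO 3, and male WT 4 was well below both. Sparc, a collagen-binding glycoprotein, was between 0.593 and 4.23 RPKM, Fn1 (fibronectin) between 0.171 and 0.889, Lum (lumican, a proteoglycan related to decorin) between 0.0196 and 0.698 and Dpt (dermatopontin) between 0.0289 and 1.44. Dpt was the only gene outside the smooth muscle group with the same 4 highest libraries, and its lowest value, in female WT 1, rests on 1 count.

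Pdgfra, the platelet-derived growth factor receptor of fibroblasts, was at 0.133, 0.0819, 0.608 and 0.346 RPKM in male WT, 0.238, 0.101, 0.67 and 0.151 in male Slfn3KO, 0.0647, 0.328, 0.331 and 0.474 in female WT, and 0.305, 0.25, 0.206 and 0.166 in female Slfn3KO. It was highest in male Slfn3KO 3 and male WT 3. Vim (vimentin), the intermediate filament of mesenchymal and immune cells, was at 3.47, 3.34, 8.83 and 3.99 RPKM in male WT, 1.83, 3.14, 3.93 and 2.95 in male Slfn3KO, 4.22, 2.49, 5.4 and 5.06 in female WT, and 3.92, 3.88, 3.57 and 3.14 in female Slfn3KO. It was highest in male WT 3, followed by female WT 3 and 4. Pdgfrb, the receptor of pericytes and smooth muscle, was between 0.749 and 3.09 RPKM and was highest in female WT 2. The genotypes overlapped in each sex for all 3 genes.

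Among the vessel genes, Pecam1 (CD31), an adhesion molecule of endothelium that leukocytes and platelets also carry, was at 0.591, 0.43, 3.53 and 0.819 RPKM in male WT, 0.359, 0.443, 1.52 and 0.615 in male Slfn3KO, 0.417, 1.06, 1.84 and 2.48 in female WT, and 0.909, 1.12, 0.644 and 0.671 in female Slfn3KO. Its group means were 1.34 ± 1.47 RPKM (SD, n = 4) in male WT, 0.735 ± 0.535 (SD, n = 4) in male Slfn3KO, 1.45 ± 0.899 (SD, n = 4) in female WT, and 0.836 ± 0.223 (SD, n = 4) in female Slfn3KO. It was highest in male WT 3, female WT 4 and female WT 3. The same 3 libraries were the highest for Cd79a, a subunit of the B cell receptor, at 61.8, 38.7 and 34.8 RPKM. The part of B cells or other leukocytes in the levels of Pecam1 and Vim was not tested.

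Cdh5 (VE-cadherin), the junction protein of endothelial cells, was at 0.317, 0.143, 0.38 and 0.0819 RPKM in male WT, 0.129, 0.143, 0.479 and 0.107 in male Slfn3KO, 0.0876, 0.297, 0.619 and 0.317 in female WT, and 0.347, 0.639, 0.156 and 0.224 in female Slfn3KO. Kdr, the main receptor for vascular endothelial growth factor, was at 0.223, 0.0909, 0.297 and 0.104 RPKM in male WT, 0.146, 0.108, 0.458 and 0.0734 in male Slfn3KO, 0.0387, 0.29, 0.358 and 0.222 in female WT, and 0.413, 0.86, 0.155 and 0.342 in female Slfn3KO. Vwf (von Willebrand factor), a clotting protein stored in endothelium, was at 0.113, 0.0489, 0.197 and 0.0686 RPKM in male WT, 0.0776, 0.0379, 0.202 and 0.0648 in male Slfn3KO, 0.0186, 0.137, 0.186 and 0.0868 in female WT, and 0.131, 0.26, 0.0534 and 0.126 in female Slfn3KO. All 3 were highest in female Slfn3KO 2. In male WT 4, the library highest for muscle, Cdh5 had its lowest value and Kdr and Vwf lay below their medians over the libraries.

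Lyve1, a hyaluronan receptor of lymphatic endothelium and some macrophages, was at 2.32, 2.11, 1.84 and 1.69 RPKM in male WT, 1.72, 1.9, 2.21 and 1.45 in male Slfn3KO, 2.26, 1.49, 1.64 and 1.77 in female WT, and 2.59, 2.34, 1.58 and 2.23 in female Slfn3KO. Its range of 1.78-fold was the narrowest of the members, followed by Mylk at 2.11-fold and Pdgfrb at 4.13-fold. It was highest in female Slfn3KO 1 and lowest in male Slfn3KO 4, and the genotypes overlapped in each sex.

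**Figure D2:**
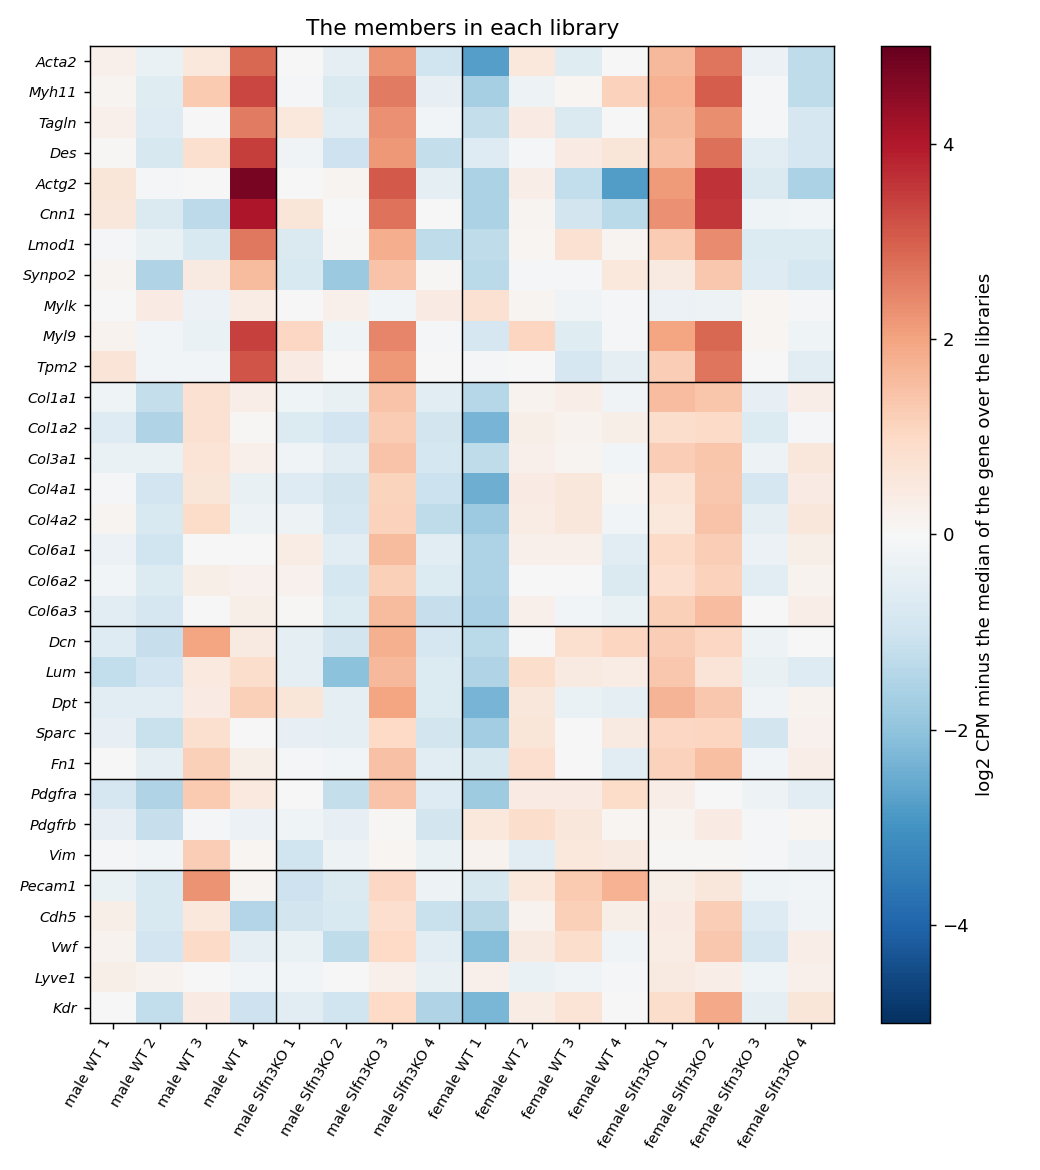
Heat map of the 32 genes by library, as log2 CPM (with a prior count of 2) minus the gene's median over the 16 libraries, with black lines between the groups of libraries and, from top to bottom, between smooth muscle, collagens, matrix proteins, mesenchymal genes and vessels. The smooth muscle genes other than Mylk are high in 4 libraries, most collagens in 3 of these, and female WT 1 is low in most genes.

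The libraries were set against each gene's median on the log2 scale. The median smooth muscle gene lay 3.16 above it in male WT 4, 2.69 in female Slfn3KO 2, 2.24 in male Slfn3KO 3 and 1.64 in female Slfn3KO 1, and at -1.27 in female WT 1. For the 16 collagen, matrix and mesenchymal genes the same value was 0.23 in male WT 4, 1.19 in female Slfn3KO 2, 1.42 in male Slfn3KO 3, 1.0 in female Slfn3KO 1 and -1.56 in female WT 1. For the 5 vessel genes it was -0.50 in male WT 4, 1.25 in female Slfn3KO 2, 1.0 in male Slfn3KO 3, 0.40 in female Slfn3KO 1 and -1.37 in female WT 1. So male WT 4 was high in muscle genes, near the middle in fibroblast genes and below it in vessel genes, while male Slfn3KO 3 and female Slfn3KO 2 were high in the 3 kinds. In female WT 1, 7 of the 11 smooth muscle genes, 13 of the 16 and 3 of the 5 lay more than 1 below their medians. That library had the highest levels of 7 of the 10 epithelial genes listed for comparison, among them Epcam and Vil1 (villin).

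The spread between mice of a group was wide. The standard deviation of log2 CPM within groups had a median of 1.38 over the 11 smooth muscle genes, from 0.314 in Mylk to 1.97 in Actg2. It was 0.889 over the 16 collagen, matrix and mesenchymal genes and 0.994 over the 5 vessel genes. Over the 14822 genes kept by the low-count filter of edgeR the median was 0.304, and over 10 epithelial genes 0.215.

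Slfn3KO and WT were first compared over the 16 libraries, with labelled sex as a covariate, to ask whether loss of Slfn3 goes with a different share of these tissues. The pooled log2 fold change (Slfn3KO over WT) was 0.56 (SE 0.80) for Acta2, 0.38 (SE 0.84) for Myh11, 0.69 (SE 1.35) for Actg2, 0.66 (SE 0.41) for Col1a1 and 0.57 (SE 0.37) for Col3a1. It was -0.49 (SE 0.23) for Vim, -0.83 (SE 0.46) for Pecam1, -0.021 (SE 0.45) for Cdh5 and 0.56 (SE 0.49) for Kdr. Pecam1 and Cdh5 were both at 0.35 without the WT libraries 3 and 4, and Pecam1 was at -0.32 without male WT 3 alone. Vim was at -0.039 without the WT libraries 3 and 4, and at -0.26 without male WT 3 alone. For the smooth muscle genes the standard errors were mostly larger than the differences, and both genotypes hold libraries with high values. In no gene of the 32 were the 8 Slfn3KO libraries apart from the 8 WT libraries, as they were in 0.027% of the 14822 genes.

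At an adjusted p-value (Benjamini-Hochberg) under 0.05 and at least a 1.5-fold change in edgeR's quasi-likelihood test, 0 of the 32 genes and 0 of the 14822 genes passed (0%). DESeq2 called 0 of the 32 and 55 genes in all (0.371%). At an unadjusted p-value under 0.05 in edgeR, 2 of the 32 genes and 1770 of 14822 (11.9%) were found. The 2 were higher in Slfn3KO, as were 4.84% of all genes, and 0 members were lower, beside 7.1% of all genes. They were Col6a1, at 0.84 (SE 0.35) and adjusted p = 0.363, and Col6a3, at 0.90 (SE 0.41) and adjusted p = 0.402, named after their values were seen, and the smallest adjusted p over all genes in edgeR was 0.327. The share of members at that level was below that of all genes.

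The log2 fold change was above 0 in 25 of the 32 genes, with a median of 0.31, beside -0.0037 over the 14822 genes. By kind, it was above 0 in 10 of the 11 smooth muscle genes (median 0.51; -0.18 in Mylk), in the 8 collagens (median 0.60), in 4 of the 5 matrix proteins (median 0.25), in 0 of the 3 mesenchymal genes (median -0.19) and in 3 of the 5 vessel genes (median 0.081). Without male WT 4, male Slfn3KO 3, female Slfn3KO 1 and female Slfn3KO 2, an alternative chosen after their values were seen and given with no test, the medians were -0.16 for smooth muscle, -0.38 for the 16 collagen, matrix and mesenchymal genes and -0.65 for vessels. Without the WT libraries 3 and 4 of both sexes, they were 1.31, 0.87 and 0.35. With 1 library left out, the smooth muscle median went from -0.032 without female Slfn3KO 2 to 1.31 without male WT 4. That of the 16 was -0.018 and that of vessels -0.16 without male Slfn3KO 3. The sign of these medians therefore rests on which libraries enter.

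The other members had pooled log2 fold changes of 0.67 (SE 0.65) for Tagln, 0.031 (SE 0.82) for Des, 0.99 (SE 1.14) for Cnn1, 0.29 (SE 0.90) for Lmod1, 0.051 (SE 0.54) for Synpo2, -0.18 (SE 0.15) for Mylk, 0.53 (SE 0.76) for Myl9 and 0.51 (SE 0.70) for Tpm2. Among matrix genes they were 0.32 (SE 0.45) for Col1a2, 0.31 (SE 0.44) for Col4a1, 0.28 (SE 0.42) for Col4a2, 0.62 (SE 0.36) for Col6a2, -0.0050 (SE 0.53) for Dcn, 0.21 (SE 0.59) for Lum, 0.94 (SE 0.53) for Dpt, 0.25 (SE 0.40) for Sparc and 0.44 (SE 0.38) for Fn1. For the receptors and the remaining vessel genes they were -0.19 (SE 0.47) for Pdgfra, -0.15 (SE 0.18) for Pdgfrb, 0.13 (SE 0.46) for Vwf and 0.081 (SE 0.14) for Lyve1. Dpt and Cnn1 had the largest differences of these. Dcn turned to 1.25, Pdgfra to 0.80 and Lyve1 to -0.029 without the WT libraries 3 and 4.

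In males, each of the 10 smooth muscle genes that passed the filter was lower in Slfn3KO by its estimate, from -0.014 in Mylk to -1.46 (SE 1.35) in Actg2, with a median of -0.63. With the replicate number as a block, Tagln (0.059), Cnn1 (0.23) and Myl9 (0.17) were above 0 and the other 7 below. Among WT males the high library was male WT 4 and among Slfn3KO males it was male Slfn3KO 3, with lower values. The collagens were above 0 in 7 of 8, with 0.79 (SE 0.51) in Col6a1, and the median of the 15 collagen, matrix and mesenchymal genes tested was 0.10. The block turned Col3a1 (-0.10) and Col4a1 (-0.19) below 0, which left 5 of the 8 above. The 5 vessel genes had a median of -0.12, with -0.88 (SE 0.76) in Pecam1 and 0.14 (SE 0.63) in Kdr, which was -0.033 with the block. Without male WT 3 and 4, each of the 10 smooth muscle genes but Mylk was above 0, as were Col4a2 (0.28) and Pecam1 (0.55).

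Lmod1 and Lum did not pass the filter in males. Of the 30 genes tested, 0 passed the threshold in edgeR, as did 0 of 14124 genes (0%), and DESeq2 called 0 of the 30 and 14 genes in all (0.0991%). At an unadjusted p under 0.05 there were 0 of the 30 in edgeR and 542 genes in all (3.84%; 1.86% higher and 1.98% lower), or 936 with the replicate number as a block. The median over the genes tested was -0.0016. In 0 of the 32 genes were the 4 Slfn3KO males apart from the 4 WT males, beside 2.4% of all genes. Leaving out male WT 4 alone moved the smooth muscle median to 0.74, and leaving out male WT 3 and 4 moved it to 1.11. Without male Slfn3KO 3 it was -1.69, and the medians were -0.65 for the collagen, matrix and mesenchymal genes and -0.83 for vessels. Without male WT 3 these were 0.44 and 0.28.

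In females, the estimates of 8 of the 9 smooth muscle genes tested were above 0, with a median of 1.56, 3.25 (SE 1.25) in Actg2, 1.77 (SE 0.92) in Acta2 and 1.56 (SE 0.92) in Myh11. In Actg2, Acta2 and Myh11, female Slfn3KO 1 and 2 were above the 4 WT females, and female Slfn3KO 3 and 4 lay among them. In Synpo2, female Slfn3KO 1 was below female WT 4, at 0.434 and 0.522 from the gene's median on the log2 scale. In Tpm2, female Slfn3KO 3 was above the 4 WT females, at 0.037 beside 0.003 in female WT 2. The 8 collagens were above 0 as well, with a median of 0.94 and 1.0 (SE 0.41) in Col3a1, and the 5 matrix proteins had a median of 0.48. The receptors Pdgfra and Pdgfrb were at -0.38 (SE 0.50) and -0.41 (SE 0.19), and the 5 vessel genes had a median of 0.28, from -0.80 in Pecam1 to 0.95 in Kdr. Without female WT 3 and 4, Pdgfra was at 0.22 and Pecam1 at 0.17.

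Cnn1 and Lmod1 did not pass the filter in females. In edgeR's test 0 of the 30 genes passed, as did 0 of 14064 (0%), the smallest adjusted p over all genes being 0.203. DESeq2 called 0 of the 30 and 504 genes in all (3.58%). At an unadjusted p under 0.05 in edgeR there were 4 of the 30, beside 2410 of 14064 genes (17.1%). The 4 were higher in Slfn3KO, as were 8.58% of all genes, and 0 members were lower, beside 8.56%. They were Actg2 (adjusted p = 0.273), Tpm2 (1.74 (SE 0.68), adjusted p = 0.274), Col3a1 (adjusted p = 0.28) and Col6a3 (1.23 (SE 0.47), adjusted p = 0.273). The genotypes were apart in 0 of the 32 genes, beside 8.02% of all genes, and the median over the genes tested was -0.0098. Without female Slfn3KO 1 and 2, the smooth muscle median was -0.27, a value given with no test. Without female Slfn3KO 2 alone it was 0.77, and the medians were 0.26 for the collagen, matrix and mesenchymal genes and -0.082 for vessels.

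**Figure D3:**
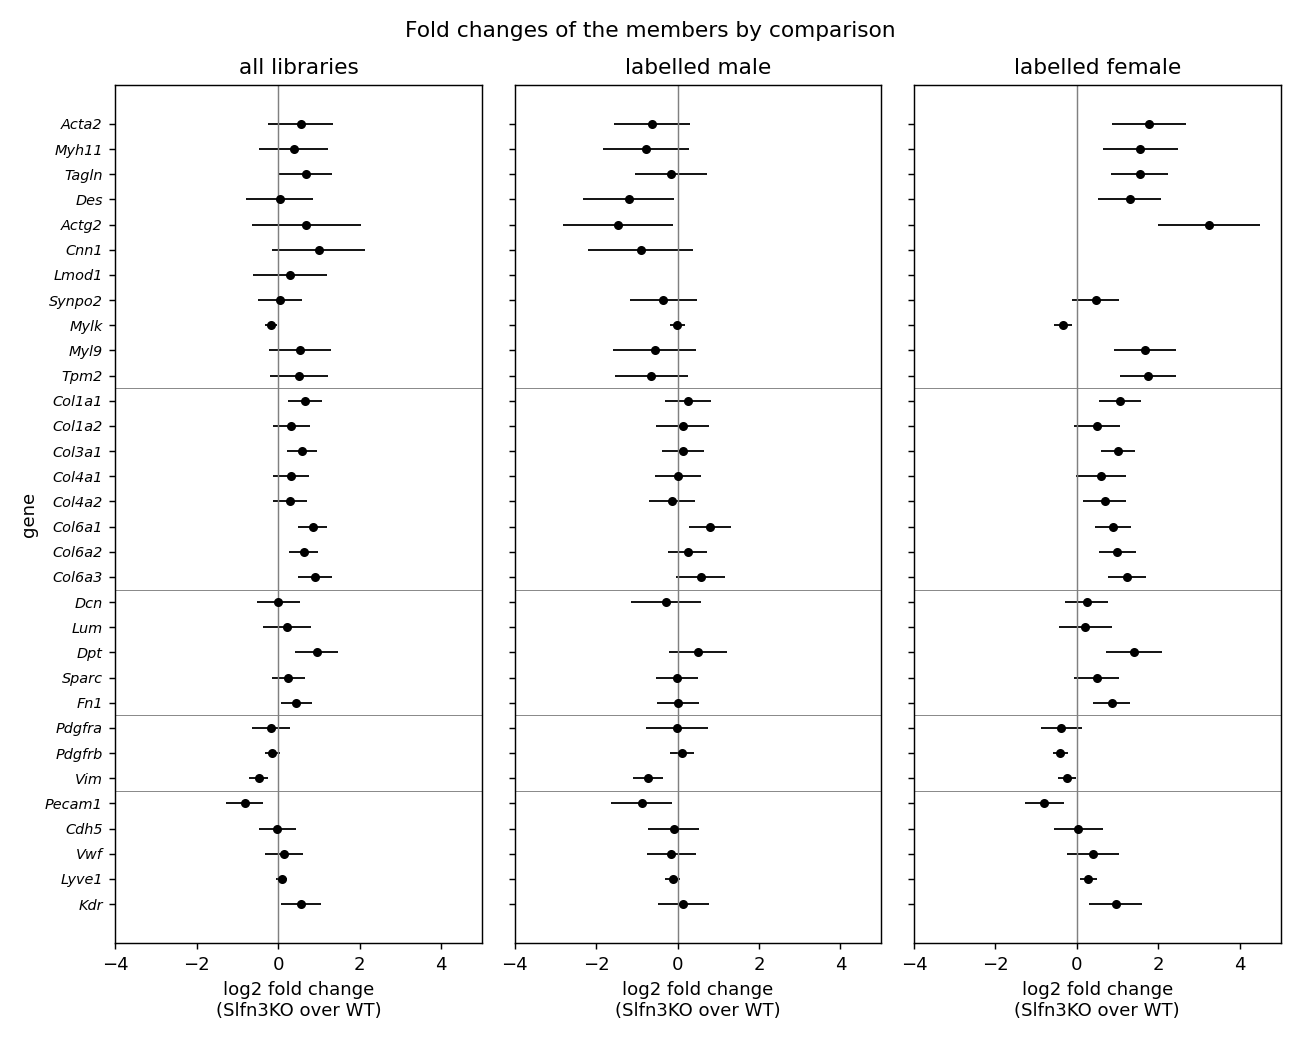
Log2 fold change (Slfn3KO over WT) of the 32 genes over all libraries, in those labelled male and in those labelled female, with edgeR estimates as points, 1 standard error on each side as bars, and no point where a gene did not pass the filter. Smooth muscle genes lie below 0 in males and, apart from Mylk, above 0 in females, with wide bars.

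Whether genotype went with a different change in each sex was asked of the interaction term, female minus male. Its median was 2.37 over the 11 smooth muscle genes, 0.55 over the 16 collagen, matrix and mesenchymal genes and 0.42 over the 5 vessel genes, beside 0.0063 over the 14822 genes. The largest values were 4.76 (SE 2.02) in Actg2 and 4.26 (SE 1.8) in Cnn1. Of the 32 genes 0 passed the threshold in edgeR, as did 0 of 14822 (0%), and DESeq2 called 0 of the 32 and 24 genes in all (0.162%). At an unadjusted p under 0.05 in edgeR there were 2 of the 32, Actg2 (adjusted p = 0.441) and Cnn1 (adjusted p = 0.441), beside 1639 genes in all (11.1%). Both were above 0, as were 5.8% of all genes at that level, and 0 members were below 0, beside 5.26%. The smooth muscle median was 0.77 without male WT 4, 3.62 without male Slfn3KO 3 and 0.046 without the 4 high libraries, so that it rests on single libraries. Without the WT libraries 3 and 4, whose sex transcripts go against the labels, it was 0.77, and 359 genes passed, with 0 of the 32 among them.

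Myh11 was set against genes of muscle and of other tissues or cell types over the 16 libraries, on the log2 CPM scale, with two-sided permutation tests. Adjusted p-values are over the 6 relations computed, of which 5 are given. With Actg2 Pearson's r was 0.794 (p = 0.00034, adjusted p = 0.00204) and Spearman's rho 0.653 (p = 0.00746, adjusted p = 0.0224). With Col1a1 r was 0.747 (p = 0.00084, adjusted p = 0.00252) and rho 0.694 (p = 0.00384, adjusted p = 0.0224). Without the 2 libraries farthest from the median of Myh11, male WT 4 and female Slfn3KO 2, r was 0.591 with Actg2 and 0.789 with Col1a1. Within WT and within Slfn3KO, r was 0.651 and 0.973 with Actg2 and 0.688 and 0.848 with Col1a1. Over the 16 libraries Myh11 thus went with both the enteric actin and a fibroblast collagen. The relations within a genotype were not tested. Among WT libraries male WT 4 was the highest in both Myh11 and Actg2, at 4.318 and 4.516 log2 CPM. Female WT 4 had 2.121 for Myh11 and -3.023 for Actg2.

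With Pecam1 r was 0.515 (permutation p = 0.0407, adjusted p = 0.061) and rho 0.612 (p = 0.0134, adjusted p = 0.0269), and r without the same 2 libraries was 0.663. With Epcam, an adhesion molecule of epithelium, r was -0.445 (permutation p = 0.0825, adjusted p = 0.099) and rho -0.529 (p = 0.0369, adjusted p = 0.0443), and r without the 2 was -0.642. With Cd79a r was 0.345 (permutation p = 0.191, adjusted p = 0.191) and rho 0.394 (p = 0.132, adjusted p = 0.132), and r without the 2 was 0.463. Within WT and within Slfn3KO, r was 0.442 and 0.807 with Pecam1, -0.084 and -0.734 with Epcam, and 0.531 and 0.239 with Cd79a. At an adjusted p under 0.05, the relations with Actg2 and Col1a1 passed by both measures, those with Pecam1 and Epcam by rho and not by r, and that with Cd79a by neither. Without the WT libraries 3 and 4, whose sex transcripts go against the labels, r was 0.757 with Pecam1 and -0.781 with Epcam (permutation tests, adjusted p = 0.00703 and 0.00462), so both then passed by r. The relation with Epcam was negative and was larger among Slfn3KO libraries than among WT libraries, a difference that was not tested. No sequencing batch is given in the sources used here, so no relation could be taken within batches.

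**Figure D4:**
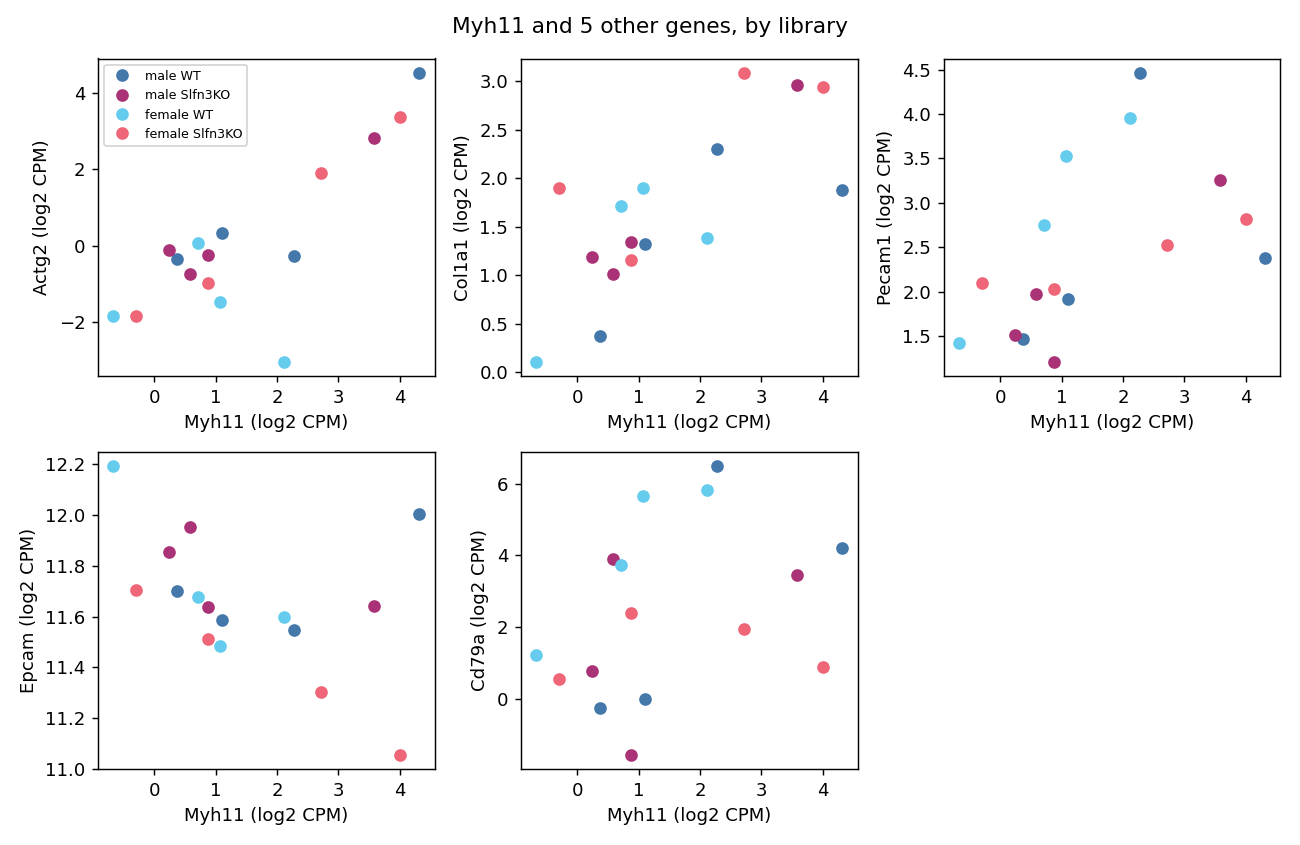
Myh11 against Actg2, Col1a1, Pecam1, Epcam and Cd79a in the 16 libraries, as log2 CPM with colours by group. Points go up to the right for Actg2 and Col1a1 (r = 0.794 and 0.747) and down for Epcam (r = -0.445).

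Outside the lists, the genes whose log2 CPM was most like the mean of the 11 smooth muscle genes over the 16 libraries, of 14665 candidates, were Flnc (r = 0.938), Synm (0.908), Pcp4l1 (0.898), Sparcl1 (0.897), Wfdc1 (0.874), Slc24a3 (0.864), Fermt2 (0.851), Ogn (0.830), Efemp1 (0.821) and Hmcn2 (0.809). Flnc (filamin C) and Synm (synemin) are known as proteins of the muscle cytoskeleton, and Ogn (osteoglycin) is a proteoglycan of the matrix. All 10 were scarce, with medians from 0.00979 RPKM in Flnc to 0.875 in Sparcl1. These likenesses are a description over libraries that share the same high samples.

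Further genes of muscle, fibroblasts, basement membrane, pericytes and endothelium, in 7 lists of 74 genes in all, were taken beside the members. Of the 58 that passed the pooled filter, 46 had a pooled log2 fold change above 0, with a median of 0.31, the same as for the members. None passed the threshold in edgeR, and at an unadjusted p under 0.05 there were 7 higher and 2 lower, beside 4.84% higher and 7.1% lower among all genes (DESeq2 called 0 of the 58). These counts and the list medians below are over all libraries, and many values moved without the WT libraries 3 and 4. Bgn went from 0.21 to 0.98, Rgs5 from 0.31 to 1.51 and Flt1 from 0.33 to 1.02. Nid2 went from 0.52 to 0.089 and Chrm3 from 0.42 to 0.22. In the list of 22 other smooth muscle genes the median was 0.054 over 16 tested, from 0.43 in Cacna1c to -0.87 in Flna (0.26 without the WT libraries 3 and 4), and the most abundant gene was Tpm1, at a median of 53.8 RPKM. Tpm1 (a tropomyosin also made outside muscle) was highest in female WT 1, as Mylk was. Myocd, the cofactor of serum response factor, was at 2 counts or less in each library.

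Among the other lists, the 14 fibroblast and matrix genes had a median of 0.25 over 12 tested, from 0.80 in Col14a1 to -0.60 in Postn, with Fbln1 the most abundant at 15 RPKM. The 9 genes of fibroblast signals had a median of 0.24 over 5 tested, and Bmp4 was the most abundant at 1.08 RPKM. The 7 basement membrane genes had a median of 0.53 over 6 tested, with 0.65 (SE 0.41) in Lama4 (a laminin chain), and Nid2 was the most abundant at 1.91 RPKM. The 5 pericyte genes had a median of 0.47 over 4 tested, from -0.025 in Kcnj8, the most abundant at 0.589 RPKM, to 0.77 in Abcc9. Postn turned to 1.07 and Kcnj8 to 0.45 without the WT libraries 3 and 4.

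The 12 further blood endothelial genes had a median of 0.47 over 10 tested, from -0.066 in Tie1 (0.61 without the WT libraries 3 and 4) to 0.94 (SE 0.47) in Ramp2. Plvap, which forms the diaphragms of fenestrated capillaries, was their most abundant gene, at 3.11, 1.05, 3.35 and 1.26 RPKM in male WT, 2.4, 1.43, 6.35 and 1.34 in male Slfn3KO, 0.619, 3.35, 4.74 and 2.7 in female WT, and 4.41, 8.73, 1.26 and 4.09 in female Slfn3KO. It was highest in female Slfn3KO 2 and lowest in female WT 1. The 5 lymphatic genes had a median of 0.68, and Mmrn1 had the highest pooled value of the 7 lists, 1.6 (SE 0.62) with adjusted p = 0.336 in edgeR. Prox1, the lymphatic master regulator and the most abundant of the 5, was between 0.226 and 0.854 RPKM. In females DESeq2 called 3 of the 56 genes tested in the 7 lists, Prox1, Actn1 and Hspg2, beside 3.58% of all genes, and edgeR called 0.

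Cells that lie between or on the muscle layers were looked at in the same libraries. The 10 genes of enteric neurons summed to 7.54, 6.1, 10.1 and 9.34 CPM in male WT, 12, 9.78, 12.7 and 9.04 in male Slfn3KO, 9.03, 7.72, 11.5 and 10.9 in female WT, and 9.98, 9.55, 9.31 and 9.01 in female Slfn3KO. Ret was their most abundant gene, at a median of 0.972 RPKM. Vip, a neuropeptide of enteric neurons named after its values were seen, had 25 counts in male WT 4, 8 in male Slfn3KO 3, 19 in female Slfn3KO 1 and 12 in female Slfn3KO 2, and 6 or fewer in each other library. It did not pass the filter. The 5 of the 10 genes that passed had these r with the mean of the 11 smooth muscle genes: -0.216 in Ret, 0.287 in Snap25, 0.390 in Prph, 0.411 in Chat and 0.422 in Uchl1. These relations were not tested. The muscle sum varied far more between libraries than the neuronal one.

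The 3 genes of the interstitial cells of Cajal, the pacemakers of the muscle layers, summed to 22.4, 22.5, 17 and 17.7 CPM in male WT, 24.9, 19.8, 27.9 and 17.4 in male Slfn3KO, 16.9, 20.7, 22.8 and 20.6 in female WT, and 31.6, 36.7, 30.7 and 29.6 in female Slfn3KO. Kit, the most abundant of them and also a gene of mast cells, had a pooled log2 fold change of 0.59 (SE 0.16), with adjusted p = 0.327 in edgeR, and DESeq2 called it. Etv1 was at 0.25 (SE 0.26) and Ano1 at -0.076 (SE 0.16), so the 3 genes did not share a sign. Of the 5 mesothelial genes, which mark the outer surface of the gut, Wt1 had 2 counts or less in each library. Upk1b was the most abundant, between 7.65 and 16.7 RPKM. Msln, which ranged from 0 to 52 counts, was at -3.38 (SE 0.74), with adjusted p = 0.327 in edgeR, and DESeq2 called it, but it did not pass the filter without the WT libraries 3 and 4. The part of these cells in the levels of the 32 genes was not tested.

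The 7 B cell genes summed to 5.22, 4.0, 710 and 145 CPM in male WT, 1.76, 5.48, 68.2 and 104 in male Slfn3KO, 14.2, 104, 340 and 444 in female WT, and 23.9, 6.85, 41.6 and 9.86 in female Slfn3KO. Their most abundant gene was Cd79b, at a median of 5.4 RPKM, and Cr2 was the only one of the 7 with 0 counts in any library. The highest sums were in male WT 3 and in female WT 3 and 4, which are not the muscle-high libraries, and male WT 4 was next. Pooled log2 fold changes of the 7 were below 0, with a median of -3.02. The 4 libraries with the highest sums are those in which Xist and Ddx3y disagree with the label. When they were left out, the 7 had pooled values above 0, with a median of 0.16, so the pooled difference rests on them, and the median was 3.96 in males and -1.46 in females. In edgeR 0 of the 7 passed the threshold and 7 had an unadjusted p under 0.05, beside 11.9% of all genes (7.1% lower), and DESeq2 called 0 of the 7. The part of B cells in the levels of the 32 genes was not tested.

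**Figure D5:**
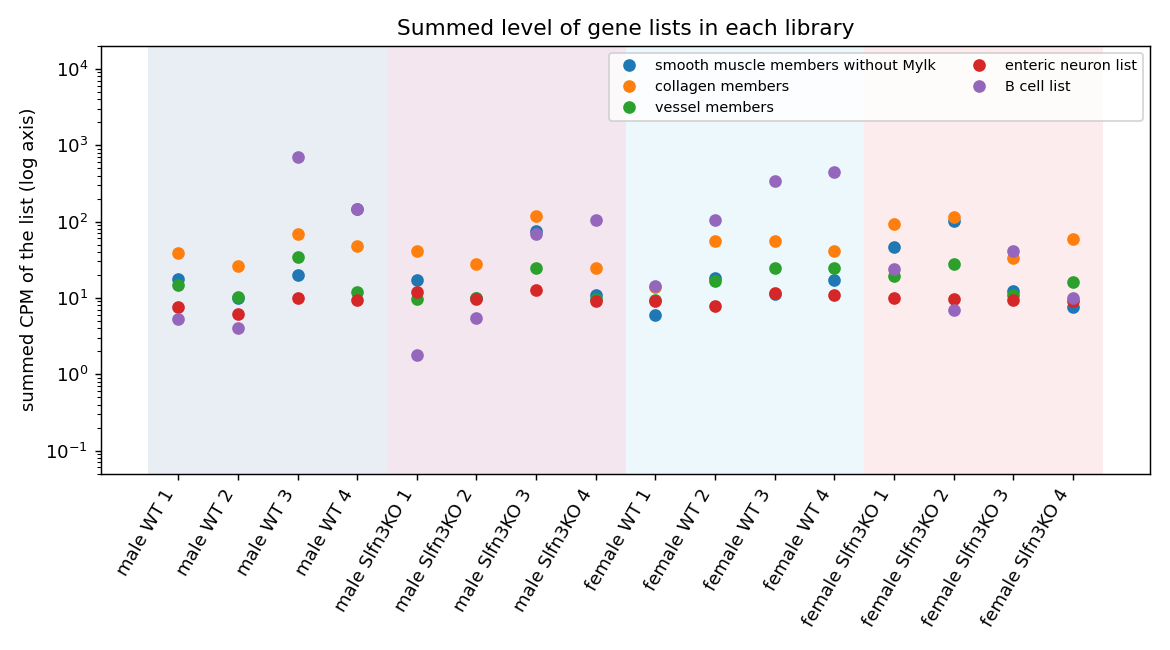
Summed CPM of smooth muscle genes without Mylk, collagens, vessel genes, and the lists of enteric neurons and B cells in each library, on a log axis with shading by group. The muscle sum is above 40 CPM in 4 libraries only, while the B cell sum is highest in male WT 3, female WT 4 and female WT 3.

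Reads of the 32 genes can be told from those of other genes. Of the 50-base stretches in their transcripts, at most 0.998% (in Pecam1) also occur in transcripts of other genes, and none do for Actg2, Tagln or Des. Reads were counted by strand, and only Col3a1 and Pdgfra share exon bases with another gene on their strand, over 1.44% and 0.299% of their bases.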

How the data were processed

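RNA of ileum mucosa was sequenced from 4 mice in each of 4 groups. Per the labels and file headers, the authors made stranded libraries and counted reads per gene with featureCounts (1.4.6) on mm10, and the deposited values are whole counts; the study's methods name another counting tool. Symbols came from GENCODE M21 (45143 of 46078 identifiers matched). The members and lists were chosen with earlier results of these data known.

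From the counts, edgeR (4.0.16, R 4.3.3) gave TMM factors, RPKM, log2 CPM with a prior count of 2, and quasi-likelihood tests after filterByExpr, tested on simulated data beforehand. DESeq2 (1.42.0) was an alternative, beside RLE factors, no filter, no covariate, the replicate block, and libraries left out. Relations used 100000 permutations in Python (3.11.15, numpy 2.4.6, scipy 1.17.1, pandas 2.3.3), and figures matplotlib 3.10.9. Values in every library are given for 16 members named by rule, and ranges for the others.

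Replicates are separate mice. Same-numbered WT and Slfn3KO males, by label, deviated together from their group means (r = 0.229, 0.318, 0.518 and 0.138, each over 0.1). By that rule the numbers would pair the males, but 4 correlations cannot settle it. Male WT 3 and 4 also held the sex transcripts of females, and the labels give no origin of a pairing.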

Additional observations from a re-analysis of the deposited data

Results flagged for a closer look

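In 25 of 128 groups of 4 libraries (32 genes in 4 groups), 1 library lay far from the other 3 by Dixon's test, where chance flags about 1 in 20 groups of normally distributed values. The test was run on RPKM and not on a log scale. Apart from Col1a2 in female WT 1, each flagged library was the highest of its group, so that rate may not hold here. The genes are not independent, since many are high in the same libraries. Male WT 4 was the high library in 8 of these groups, with RPKM of Acta2 11.8, Tagln 9.52, Des 5.93, Actg2 14.6, Cnn1 3.67, Lmod1 0.279, Myl9 13.6 and Tpm2 4.88, each of them a smooth muscle gene. Male Slfn3KO 3 was the high library in 14, with RPKM of Acta2 7.52, Myh11 1.8, Des 2.39, Actg2 4.46, Cnn1 1.46, Tpm2 2.45, Col1a1 1.17, Col1a2 1.21, Col3a1 3.14, Col4a1 2.24, Dcn 7.68, Sparc 3.99, Fn1 0.847 and Cdh5 0.479, which take in smooth muscle, collagen, matrix and vessel genes. Male WT 3, labelled male but with the sex transcripts of a female, was high in Vim 8.83 and Pecam1 3.53 RPKM. Female WT 1 was far below the other female WT libraries in Col1a2, at 0.0946 RPKM. Female Slfn3KO 1 and 2 are both high in the smooth muscle genes, so neither lies far from all others of its group. Why these libraries differ was not tested.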

How the results depend on the processing

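Across the alternatives run in edgeR and DESeq2, 0 of the 32 genes passed the threshold in any comparison. In edgeR 0 genes passed in each comparison whichever single library was left out, while the number at an unadjusted p under 0.05 went from 1287 to 2560 over all libraries, 345 to 1074 in males, 1229 to 3704 in females and 969 to 2960 for the interaction. DESeq2 called 55, 14, 504 and 24 genes in these comparisons, and 359 passed for the interaction in edgeR without the WT libraries 3 and 4. The signs of single estimates turned often, in 94 of 774 values outside the single-library removals and in 55 of 124 results within them. The cause was not tested.

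With the replicate block edgeR called 1 gene over all libraries, 0 in males, 0 in females and 0 for the interaction, and changed no other call. Female libraries of WT and Slfn3KO share only a number: their deviations correlated at -0.364, 0.143, -0.337 and -0.114, and 1 of 4 correlated best with its own number. At an unadjusted p under 0.05 the blocked fit had 1719, 936, 1306 and 1492 genes in these comparisons. With the block the log2 fold change had the other sign over all libraries for Dcn 0.17 and Cdh5 0.010, and in males for Tagln 0.059, Cnn1 0.23, Myl9 0.17, Col3a1 -0.100, Col4a1 -0.19, Fn1 -0.079, Pdgfra 0.027 and Kdr -0.033. Without sex as a covariate the sign over all libraries turned for Des -0.14 and Actg2 -0.19, and with RLE factors that of the interaction turned for Lum -0.0092.

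Without the WT libraries 3 and 4 the log2 fold change had the other sign over all libraries for Dcn 1.25, Pdgfra 0.80, Pecam1 0.35, Cdh5 0.35 and Lyve1 -0.029. In males these were Acta2 0.87, Myh11 1.34, Tagln 1.18, Des 1.05, Actg2 1.29, Cnn1 1.44, Synpo2 0.72, Myl9 1.25, Tpm2 0.74, Col4a2 0.28, Dcn 1.34, Sparc 0.74, Pdgfra 1.47, Pecam1 0.55 and Vwf 0.28. In females they were Pdgfra 0.22, Vim 0.11 and Pecam1 0.17, and for the interaction Col1a2 -0.15, Col6a1 -0.11, Dcn -0.15, Lum -1.33, Dpt -0.20, Sparc -0.055, Fn1 -0.0018 and Pecam1 -0.37. The median of the smooth muscle genes was then 1.11 in males and 0.77 for the interaction, and r of Myh11 was 0.757 with Pecam1 and -0.781 with Epcam (permutation tests, adjusted p = 0.00703 and 0.00462).

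Without the 4 libraries with high smooth muscle genes, a choice made after seeing the data, the sign turned over all libraries for Acta2 -0.53, Myh11 -0.86, Tagln -0.036, Des -0.90, Actg2 -0.29, Synpo2 -0.66, Col1a1 -0.13, Col1a2 -0.52, Col3a1 -0.15, Col4a1 -0.51, Col4a2 -0.45, Col6a2 -0.0031, Lum -0.83, Sparc -0.47, Fn1 -0.31, Vwf -0.65, Lyve1 -0.12 and Kdr -0.41. In males it turned for Tagln 0.12, Cnn1 0.60, Mylk 0.16, Myl9 0.47, Col1a1 -0.38, Col1a2 -0.72, Col3a1 -0.62, Col4a1 -0.90, Col6a2 -0.26, Col6a3 -0.12, Fn1 -0.69, Pdgfrb -0.019 and Kdr -0.90. In females it turned for Acta2 -0.43, Myh11 -0.78, Tagln -0.22, Des -0.89, Actg2 -0.27, Synpo2 -0.72, Myl9 -0.18, Col1a2 -0.30, Col4a1 -0.11, Dcn -0.54, Lum -0.95, Sparc -0.33, Cdh5 -0.83 and Vwf -0.29, and for the interaction Tagln -0.32, Synpo2 -0.096, Myl9 -0.64, Lum -0.24 and Pdgfra 0.054. The medians were -1.0 for vessel genes in males, and for smooth muscle genes -0.27 in females and 0.046 for the interaction.

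Leaving out each library in turn, estimates of both signs were found over all libraries for Des (-0.53 to 0.92), Cdh5 (-0.36 to 0.20), Synpo2 (-0.32 to 0.38), Dcn (-0.51 to 0.45), Pdgfra (-0.60 to 0.085), Myh11 (-0.20 to 1.09), Lmod1 (-0.33 to 1.39), Col1a2 (-0.076 to 0.54), Col4a1 (-0.048 to 0.49), Col4a2 (-0.025 to 0.49), Lum (-0.37 to 0.42), Sparc (-0.0099 to 0.46), Vwf (-0.16 to 0.37), Actg2 (-0.032 to 2.31) and Tpm2 (-0.0088 to 1.31). In males the ranges were Col1a2 (-0.78 to 0.61), Col3a1 (-0.65 to 0.39), Fn1 (-0.66 to 0.44), Cdh5 (-0.87 to 0.27), Mylk (-0.13 to 0.086), Col1a1 (-0.47 to 0.59), Col4a1 (-0.82 to 0.38), Pdgfrb (-0.069 to 0.27), Kdr (-0.71 to 0.52), Col4a2 (-0.89 to 0.27), Dcn (-1.43 to 0.71), Sparc (-0.60 to 0.44), Pdgfra (-0.85 to 0.66), Pecam1 (-1.53 to 0.28), Vwf (-0.83 to 0.35), Acta2 (-1.87 to 0.63), Myh11 (-2.29 to 0.59), Tagln (-1.16 to 1.11), Des (-2.65 to 0.53), Actg2 (-3.14 to 1.37), Cnn1 (-2.13 to 1.82), Synpo2 (-1.28 to 0.31), Myl9 (-1.44 to 1.35), Tpm2 (-1.51 to 0.86), Col6a2 (-0.35 to 0.49), Col6a3 (-0.33 to 0.85) and Dpt (-0.40 to 1.03). In females they were Dcn (-0.060 to 0.57), Lum (-0.33 to 0.51), Cdh5 (-0.48 to 0.53), Synpo2 (-0.17 to 0.76) and Vwf (-0.082 to 0.81), and for the interaction Cdh5 (-0.37 to 0.89), Col1a2 (-0.071 to 1.26), Dcn (-0.44 to 1.66), Lum (-0.55 to 1.4), Pecam1 (-1.05 to 0.71), Lmod1 (-0.079 to 3.8), Col6a1 (-0.16 to 0.77) and Pdgfra (-1.0 to 0.46). 

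The median of the smooth muscle genes, again with each library left out, went from -0.032 to 1.31 over all libraries, -1.69 to 0.74 in males, 0.77 to 1.96 in females and 0.77 to 3.62 for the interaction. That of the collagen, matrix and mesenchymal genes went from -0.018 to 0.52, -0.65 to 0.44, 0.26 to 0.90 and 0.16 to 1.4, and that of vessels from -0.16 to 0.20, -0.83 to 0.28, -0.082 to 0.53 and 0.080 to 0.89, in the same order.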

Other observations

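Genes of other cells and of the epithelium were read in the same libraries, as pooled log2 fold changes (Slfn3KO over WT) in edgeR. Of 12 genes of growth factor ligands for stromal and vessel cells, 10 passed the filter, 5 were above 0 and the median was -0.027. The ends were 0.35 (SE 0.45) in Angpt2 and -0.91 (SE 0.36) in Tgfb1, and the most abundant was Vegfa, at a median of 32.9 RPKM. The 7 macrophage genes tested of 8 were below 0, with a median of -0.19 and -0.49 (SE 0.19) in Mrc1, while Cd163 had at most 3 counts in each library. Of 3 genes of lymphoid stroma tested, Cxcl13, a chemokine of B cell follicles, was at -3.16 (SE 1.12), Madcam1 at -1.95 (SE 0.97) and Ccl21a at 0.96 (SE 0.60). Leaving out the WT libraries 3 and 4, in which sex transcripts disagree with the label, moved Cxcl13 to -0.10 and Madcam1 to -0.029, so these differences rest on them. The macrophage median was then 0.18, with 6 of 7 above 0, the ligand median 0.15 and Tgfb1 at 0.044. In edgeR 0 genes of these lists passed the threshold, and at an unadjusted p under 0.05 there were 2 ligands (Vegfa and Tgfb1), 1 macrophage gene (Mrc1) and 1 gene of lymphoid stroma (Cxcl13), beside 11.9% of all genes. DESeq2 called 0 of them over all libraries.

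The 10 epithelial genes had a median of -0.092, with 3 above 0, from 0.24 in Krt18 to -0.45 in Alpi. The 4 genes of ileal enterocytes were below 0, with a median of -0.24, and the 3 of proximal enterocytes had a median of -0.77, with -1.68 (SE 1.82) in Lct (lactase). The 4 ileal genes were above 0, with a median of 0.17, without the WT libraries 3 and 4. Of the proximal genes, Lct was then at -3.24, Gata4 at -1.61 and Cybrd1 at 0.42. By labelled sex and with all libraries, Lct was at 0.67 (SE 1.29) in males and -4.04 (SE 2.24) in females. The 4 genes of red blood cells had a median of -0.81, from -0.76 in Hbb-bs to -1.1 in Hbb-bt. Of the adipocyte genes, 2 of 5 passed the filter, with 1.28 (SE 1.83) in Cfd and -0.44 (SE 0.43) in Cidec. Of the 5 pancreas genes, Pnlip, Ctrb1, Cpa1 and Prss2 had at most 3 counts in each library, and Cela1 was at 0.076 (SE 0.14), or -0.039 without the WT libraries 3 and 4. In edgeR 0 genes of these lists passed the threshold, and Krt18 and Krt19 had an unadjusted p under 0.05, beside 11.9% of all genes. DESeq2 called 0 of them over all libraries.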
